A study of Mus musculus with 24 samples.

Results

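The genes described here are 10 members of the BCL2 family, chosen by name and matched to 10 of the 55471 Ensembl genes in the files. They are grouped here as the guardians Bcl2l10, Mcl1, Bcl2 and Bcl2l1, the effectors Bax, Bak1 and Bok, and the BH3-only genes Bid, Bbc3 and Bcl2l11. The study followed m6A, a methyl mark on adenosines of RNA, through the mouse maternal-to-zygotic transition with SLIM-seq, in which total RNA bound by an m6A antibody (IP) is sequenced beside RNA of the same batches that was not passed over the antibody (input). The methods describe no fragmentation of RNA before the IP, so that an IP value refers to whole RNA molecules and not to places within them. The study comprised 3 IP and 3 input libraries each of MII oocytes, late 1-cell (L1C) embryos and late 2-cell (L2C) embryos, with 100 ng of total RNA per IP according to the labels. In a second experiment L2C embryos had been injected as early zygotes with Cas13d mRNA plus 3 crRNAs against Ythdc1, which encodes a nuclear m6A reader (KD, n = 3), or with Cas13d mRNA alone (Ctrl, labelled NC, n = 3). All material was B6D2F1, with superovulated females that were 8 weeks old at the first hormone injection, an age the methods give for the donors of MII oocytes, and the Ctrl embryos share the Cas13d mRNA and the injection with the KD embryos. These are bulk libraries, in which fewer cells of a type and less RNA per cell cannot be told apart. Nothing in the sources says that replicates came from separate collections, and p-values therefore measure the spread between these libraries.

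BCL2 family proteins meet at the outer mitochondrial membrane. Bax and Bak1 permeabilise it and release cytochrome c, the guardians hold them and the BH3-only proteins in check, and BH3-only proteins such as Bid, Bbc3 (PUMA) and Bcl2l11 (BIM) relieve that check or activate the effectors. Oocytes carry a large store of maternal RNA that is cleared after fertilisation, while the embryo's own genome is switched on, in the mouse mainly at the 2-cell stage.

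Total estimated counts ranged from 11107421 to 39739950 per SLIM-seq library and total exon counts from 8696476 to 14500548 per whole library of the KD experiment. Levels are given as CPM, counts scaled to the total of each library. The SLIM-seq counts cover whole gene spans, introns included, whereas the counts of the KD experiment cover exons. The merged count table of the KD experiment ends on chromosome 7, as do the counts of KD replicate 3, so that Bcl2l10 and Bak1 were read in 5 libraries (KD replicates 1 and 2 and all Ctrl) and the other 8 members in 6. The summed level of 10 oocyte markers lay between 7882 and 9131 CPM in MII inputs and between 878 and 904 CPM in L2C inputs, and that of 9 measured 2-cell markers rose from between 28.7 and 34.1 CPM to between 574 and 764 CPM. Of 10 cumulus cell markers, Ptx3 and Foxl2 were at the floor of 3 counts in every input. The sum of the 10 was between 22.6 and 24.0 CPM at MII, between 10.5 and 11.5 CPM at L1C and between 268 and 284 CPM at L2C, where Amhr2 alone had 270 CPM. The part of other cells in the results below was not tested.

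Bcl2l10 RNA dominated the family in the oocyte. Bcl2l10 (also called Diva or Boo, chr9:75347758-75351649, plus strand) is grouped here with the guardians and has high expression in oocytes. Its role in cell death was not tested. Its level was 2652, 3314 and 3969 CPM in the 3 MII inputs, 1594, 2206 and 2058 CPM in the L1C inputs and 183, 182 and 193 CPM in the L2C inputs. The 3 stages did not overlap. The log2 change was -0.81 ± 0.15 (SE) from MII to L1C (adjusted p = 0.00049) and -3.48 ± 0.17 from L1C to L2C (adjusted p = 1.3e-10), a 19.7-fold fall from MII to L2C. To set genes side by side, counts were divided by exon length, although they include introns, so that this scale raises genes with long introns and the order of genes depends on it. Bcl2l10 had 2677 ± 532 CPM per exon kb (SD, n = 3) at MII and made up 92.8% ± 1.05 of the summed level of the 10 genes. Its share was 90.6% ± 0.347 at L1C and 53.2% ± 2.52 at L2C. The summed level of the family fell over the same time from 2881 ± 542 to 283 ± 7.21 CPM per exon kb.

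Bcl2l1 (BCL-XL and its short form, chr2:152780668-152831728, minus strand) was the second guardian of the inputs. It had 754, 871 and 817 CPM at MII, 500, 740 and 689 CPM at L1C and 322, 366 and 304 CPM at L2C. All L2C inputs lay below all earlier inputs, and the L1C inputs below the MII inputs by a log2 change of -0.39 ± 0.14 (adjusted p = 0.031). That first step was not called when counts were scaled to library size (-0.34, adjusted p = 0.06) or without MII replicate 2, MII replicate 3 or L1C replicate 1, with log2 changes from -0.50 to -0.24 over the 9 libraries left out. The fall from L1C to L2C was -1.05 ± 0.14 (adjusted p = 9.5e-06).

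Mcl1 RNA went the other way. Mcl1 (chr3:95658788-95663176, plus strand), a guardian whose protein is short-lived, was nearly absent before L2C, with 0.905, 1.14 and 0.323 CPM in MII inputs (22, 24 and 6 counts) and 1.08, 1.35 and 1.11 CPM at L1C. The L2C inputs held 28.9, 22.1 and 25.0 CPM, each above all 6 earlier inputs. The log2 change from L1C to L2C was 4.32 ± 0.28 (adjusted p = 2.6e-09), while that from MII to L1C was 0.50 ± 0.34 (adjusted p = 0.23). Bcl2l10 exceeded Mcl1 per exon kb by 8016 to 33923 times in MII inputs, by 4071 to 5136 times at L1C and by 17.5 to 22.8 times at L2C. On deposited TPM the distance was smaller, with means of 3546 and 1.88 TPM at L1C and of 232 and 27.8 TPM at L2C.

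Bcl2 itself (chr1:106538178-106714274, minus strand), the founding guardian, was at the floor in MII inputs, with 2.46 estimated counts in replicate 1 and 0 in the others. It had 13.0 to 18.3 counts in L1C inputs and 14.0 to 24.0 at L2C, at least 4.8-fold and at least 4.54-fold above the floor of 3 counts per library (adjusted p = 0.00032 and 0.00017). An antisense gene, D630008O14Rik, lies within its span, and reads on the span cannot be told apart by strand here.

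**Figure D1:**
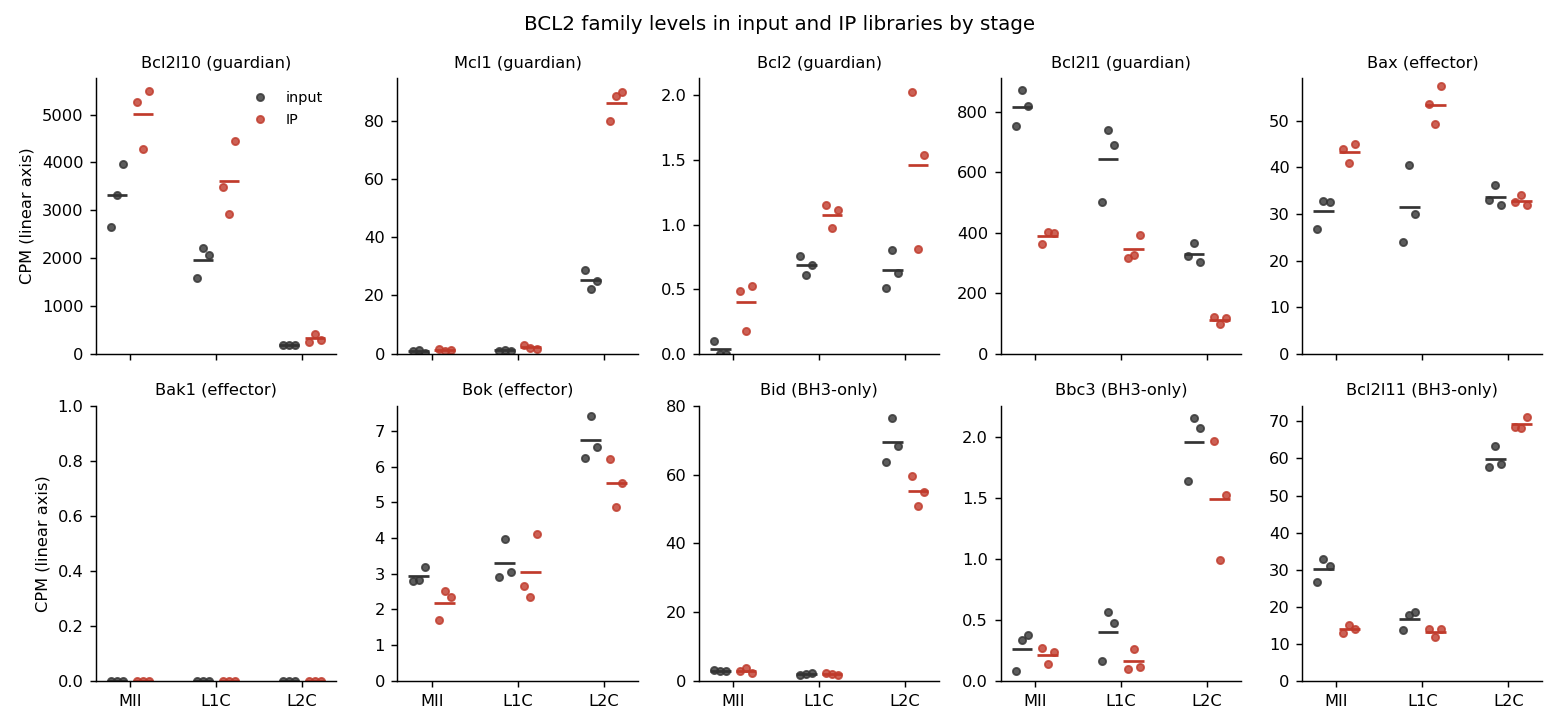
Level of each member in every SLIM-seq library, as CPM on linear axes that start at 0 and differ between panels. Black points are inputs and red points IP libraries, 3 each at MII, L1C and L2C, and lines are means. Bcl2l10 input means fell from 3312 to 186 CPM, Mcl1 and Bid were near 0 until L2C, and Bak1 held no count.

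Among the BH3-only genes Bid rose most. Bid (chr6:120891930-120916853, minus strand) links death receptors to mitochondria once caspase-8 has cut it. Its level was 3.21, 2.93 and 2.92 CPM at MII, 1.77, 1.97 and 2.28 CPM at L1C and 63.6, 76.4 and 68.3 CPM at L2C. It fell by 0.64 ± 0.18 on the log2 scale from MII to L1C (adjusted p = 0.0086) and then rose 32.5-fold (log2 change 5.02 ± 0.18, adjusted p = 7.1e-12). Bcl2l13, on the other strand, overlaps the end of Bid, and 17.7% of the exon bases of Bid lie in exons of other genes. Bcl2l13 inputs held 84.9 ± 4.67, 36.1 ± 3.70 and 249 ± 8.63 CPM at MII, L1C and L2C, and the share of Bid counts that belongs to it was not tested.

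Bcl2l11 (chr2:128126038-128162547, plus strand), which binds all main guardians, had 26.7, 32.8 and 30.9 CPM at MII, 13.7, 17.7 and 18.5 CPM at L1C and 57.8, 63.4 and 58.4 CPM at L2C. It thus passed through a low point at L1C that did not overlap either neighbour. The log2 changes were -0.91 ± 0.15 (adjusted p = 0.00015) and 1.76 ± 0.15 (adjusted p = 5.6e-08). Bbc3 (chr7:16308393-16318205, plus strand), a target of p53, was low, with 0.0825 to 0.377 CPM at MII, 0.167 to 0.560 CPM at L1C and 1.64 to 2.15 CPM at L2C. Its rise from L1C to L2C was 4.61-fold (log2 change 2.21 ± 0.48, adjusted p = 0.00069), and its L1C and MII inputs overlapped (adjusted p = 0.44).

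Bax (chr7:45461697-45466898, minus strand), an effector, had 26.8, 32.7 and 32.6 CPM at MII, 23.9, 40.5 and 29.9 CPM at L1C and 32.9, 36.3 and 31.9 CPM at L2C. The stages overlapped, with log2 changes of -0.02 ± 0.18 from MII to L1C and 0.01 ± 0.17 from L1C to L2C (adjusted p = 0.94 and 0.96), whose sign differed between alternatives. Exons of Gm45808, a gene on the same strand, share 12.2% of the exon bases of Bax. Bok (chr1:93685660-93695764, plus strand), an effector that does not need Bax or Bak1, had 2.80 to 3.18 CPM at MII, 2.91 to 3.97 CPM at L1C and 6.24 to 7.42 CPM at L2C, a rise of 0.93 ± 0.21 on the log2 scale from L1C to L2C (adjusted p = 0.0008).

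Bak1 (chr17:27019810-27029009, minus strand), the other main effector, had 0 counts in all 18 SLIM-seq libraries and in all 5 whole libraries of the KD experiment. Counts of 0 allow up to 0.27 CPM in the SLIM-seq library with the fewest counts and 0.345 CPM in that of the KD experiment, counting error only. The whole span of Bak1 lies inside 2 genes named Ggnbp1 on the other strand. These held 0 to 281 and 0 to 45 counts per SLIM-seq library, and 0 and 9 to 23 per whole library of the KD experiment. Of the exon bases of Bak1, 25.5% lie in exons of other genes. Counts of 0 at Bak1 are therefore counts assigned to it under this overlap. Reads on the span cannot be told apart between these genes in the SLIM-seq counts. In the exon counts of the KD experiment this limit covers only the shared exon bases.

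Across the family 1 member rose and 4 fell of 9 tested from MII to L1C, where 31.9% of all 19903 genes tested rose and 24.3% fell. In the next step, to L2C, 5 members were called higher and 2 lower (all genes 44.1% and 38.8%). Between MII and L2C 6 members were called higher and 2 lower (47.5% and 37.1%). The median log2 change of the members was -0.02, 0.93 and 1.06 against 0.16, 0.17 and 0.40 for all genes, and the first and last of these medians were the same with Bcl2 set at its bound. The sizes ranged from a 19.7-fold fall to a 28.2-fold rise between MII and L2C.

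The order of levels per exon kb changed with them. At MII it was Bcl2l10, Bcl2l1, Bax, Bcl2l11, Bok, Bid, Mcl1, Bbc3 and Bcl2, and Mcl1 and Bbc3 overlapped in their libraries. At L2C it was Bcl2l10 (151 ± 4.98 CPM per exon kb), Bcl2l1 (72.1 ± 6.98), Bax (21.4 ± 1.47), Bid (19.6 ± 1.83), Bcl2l11 (7.46 ± 0.385), Mcl1 (7.41 ± 0.993), Bok (3.66 ± 0.331), Bbc3 (0.921 ± 0.129) and Bcl2 (0.0707 ± 0.0161). Bax overlapped Bid there, and Bcl2l11 overlapped Mcl1. BH3-only genes together made up 0.167% ± 0.0219 of the summed level at MII and 9.86% ± 0.561 at L2C, and effectors 0.740% ± 0.0732 and 8.84% ± 0.428. These shares are of a summed level that fell from 2881 ± 542 to 283 ± 7.21 CPM per exon kb. Bax, the highest effector, had a log2 change of -0.01 ± 0.17 from MII to L2C, so that its share rose without a called rise in level. The deposited TPM values, which divide by the whole span and so favour genes with short introns, gave another order below Bcl2l10. At L2C Bcl2l10 had 232 ± 10.0 TPM, Bax 30.8 ± 1.61 TPM, Bcl2l1 29.2 ± 2.31 TPM, Mcl1 27.8 ± 4.21 TPM, Bid 12.6 ± 0.928 TPM and Bcl2l11 7.42 ± 0.233 TPM, so that Bax, Bcl2l1 and Mcl1 lay within their SDs of each other, and Mcl1 stood above Bid and Bcl2l11. Bcl2l10 led on both scales.

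The exon counts of Ctrl embryos gave another order at the same stage. Bcl2l10 led with 109 ± 7.19 CPM per exon kb, followed by Mcl1 (47.8 ± 2.2), Bid (7.73 ± 0.644), Bcl2l11 (5.94 ± 0.69), Bax (5.21 ± 1.55), Bok (1.71 ± 0.295) and Bcl2l1 (1.59 ± 0.366). Bcl2l1 had a mean of 331 CPM in L2C inputs and 7.28 CPM in Ctrl, a ratio of 45.4 that exceeded that of 99.5% of 11078 protein-coding genes, among which the median log2 ratio was 0.20. For Mcl1 the means were 25.3 and 163 CPM, a ratio of 0.155 that exceeded that of 5.3% of genes. Bcl2l10, Bcl2l11 and Bid had ratios of 1.38, 1.26 and 2.53. The experiments differ in library preparation, in injection and in counting (gene spans against exons), which cannot be told apart, and no test was made between them. Without Bcl2l1 in the sum, Bcl2l10 made up 99.0% of the family at MII and 71.3% at L2C.

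**Figure D2:**
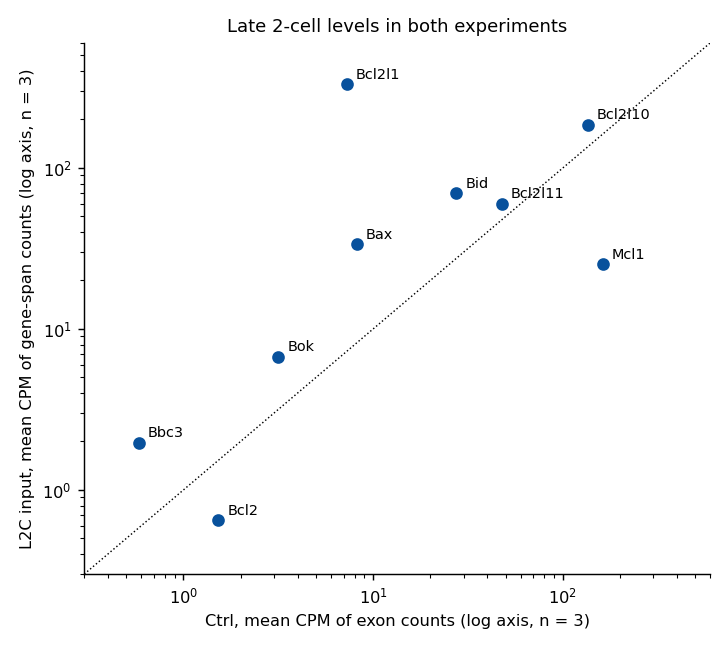
Mean CPM of the members in L2C inputs (gene-span counts, vertical log axis) against Ctrl embryos (exon counts, horizontal log axis), with 3 libraries each and the dotted line where both are equal. Bcl2l1 lies 45.4-fold above the line and Mcl1 below it at a ratio of 0.155, while Bak1 had no count and is not drawn.

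Promoters are shown for Mcl1 and Bid, the 2 members with the largest rise from L1C to L2C. Each runs from 250 bases before to 50 after the RefSeq start (GRCm38.p6), in the direction of transcription, and the capitals mark GGGCGG, a GC box, on either strand. CCAAT, bound by NF-Y, was searched on both strands as well and does not occur in these windows, and neither does the TATA box searched as TATAAA. Of 32851 RefSeq promoters of this length, 35.7% hold the GC box, 37.4% the CCAAT box and 13.6% the TATA box. The GC box occurred 1 time for Mcl1 and 3 times for Bid, and the promoters listed for Bax, Bcl2, Bok, Bcl2l11 and Bbc3 hold it too, whereas those for Bcl2l1 and Bak1 do not. The matches are descriptions of letters only.
Mcl1, chr3:95658471-95658770, plus strand: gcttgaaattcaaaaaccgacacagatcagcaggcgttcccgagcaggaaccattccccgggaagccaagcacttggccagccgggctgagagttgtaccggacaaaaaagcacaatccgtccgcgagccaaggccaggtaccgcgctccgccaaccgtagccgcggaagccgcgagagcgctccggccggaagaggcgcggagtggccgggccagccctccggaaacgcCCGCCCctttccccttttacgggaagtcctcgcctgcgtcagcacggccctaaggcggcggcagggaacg
Bid, chr6:120916775-120917074, minus strand: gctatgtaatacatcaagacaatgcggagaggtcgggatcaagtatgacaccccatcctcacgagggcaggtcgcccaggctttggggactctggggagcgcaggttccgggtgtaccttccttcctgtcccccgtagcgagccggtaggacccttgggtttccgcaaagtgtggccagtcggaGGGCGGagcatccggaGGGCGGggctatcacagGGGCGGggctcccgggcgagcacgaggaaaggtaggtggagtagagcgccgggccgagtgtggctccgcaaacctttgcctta

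IP and input were compared in 1 fit of all 18 libraries, on counts scaled by TMM, a scaling that sets the typical gene at no change, so that a log2 IP/input is relative to other RNAs of the stage. Scaling to library size alone raised the median log2 IP/input of all genes from 0.00 to 0.20 at MII, from 0.07 to 0.37 at L1C and from 0.09 to 0.34 at L2C. At MII 1 member was higher and 3 were lower in the IP of 9 tested, where 17.7% of 21950 genes were higher and 21.0% lower. At L1C 2 were higher and 3 lower (15.8% and 18.2%), and at L2C 2 higher and 2 lower (22.0% and 22.0%). The median log2 IP/input of the members was -0.25, -0.31 and -0.29 at MII, L1C and L2C. By a simplified form of the rule of the study (log2 IP/input above 0, unadjusted P under 0.05 and more than 1 count in each input), 0 members passed at MII, 2 at L1C and 3 at L2C (Mcl1, Bcl2l10 and Bcl2), where 19.5%, 18.9% and 24.3% of genes did.

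Mcl1 stood highest in the IP at L2C. Its L2C IP libraries held 80.0, 88.6 and 90.0 CPM against 28.9, 22.1 and 25.0 CPM in the inputs, without overlap, a log2 IP/input of 1.51 ± 0.21 (adjusted p = 1.3e-05). At MII and L1C it was 0.40 ± 0.33 and 0.55 ± 0.28 (adjusted p = 0.37 and 0.15), on 6 to 61 counts per library, and L1C was called with library size scaling (0.85, adjusted p = 0.023). The change from L1C to L2C was 0.97 ± 0.35 (adjusted p = 0.093), and DESeq2 called it (0.92, 0.039). The change of IP/input from MII to L2C, 1.11 ± 0.39, had an adjusted p of 0.05, just above the threshold before rounding, and was not called, while DESeq2 (adjusted p = 0.027), the fit without a filter (0.035) and that on protein-coding genes (0.037) called it.

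Bcl2l10 IP libraries held 5261, 4279 and 5491 CPM at MII, 3480, 2914 and 4458 CPM at L1C and 256, 419 and 286 CPM at L2C, each above the inputs of its stage. The log2 IP/input was 0.36 ± 0.18 at MII (adjusted p = 0.13), 0.59 ± 0.18 at L1C (adjusted p = 0.018) and 0.52 ± 0.18 at L2C (adjusted p = 0.028). The L1C call was lost without L1C input replicate 1 or L1C IP replicate 3 (lowest log2 value 0.40), and the L2C call without L2C input replicate 1 or 2 or L2C IP replicate 2 (lowest 0.30) and in a fit of the L2C libraries alone (0.50, adjusted p = 0.055). MII was called as well with library size scaling (0.60, adjusted p = 0.018), without a filter (0.36, 0.048) and with the MII libraries alone (0.41, 0.036). The enrichment of this abundant maternal RNA did not differ detectably between stages, with changes of 0.23 ± 0.26 from MII to L1C and -0.07 ± 0.26 from L1C to L2C.

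Bcl2l1 lay below its inputs at every stage. These are gene-span counts, which for Bcl2l1 at L2C were 45.4-fold above the exon counts of Ctrl. The part of its IP/input that comes from exons of its mRNA was not tested. Its IP libraries held 364, 401 and 399 CPM at MII, 316, 327 and 392 CPM at L1C and 122, 99.7 and 118 CPM at L2C, each below all inputs of the stage. The log2 IP/input was -1.30 ± 0.14, -1.20 ± 0.14 and -1.79 ± 0.14 (adjusted p = 4.4e-07, 2.2e-06 and 1.9e-08). All 3 stages were called under every alternative tried. The difference between L2C and L1C was -0.60 ± 0.20 (adjusted p = 0.062), and it was called by DESeq2 (-0.65, adjusted p = 0.0076), with library size scaling (-0.64, 0.044), without a filter (-0.63, 0.035) and with the libraries of these stages alone (-0.79, 0.03).

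Bcl2l11 was called for a change of IP/input between all 3 pairs of stages. Its IP libraries held 12.9, 15.1 and 14.1 CPM at MII, below inputs of 26.7 to 32.8 CPM. They held 14.0, 11.9 and 13.9 CPM at L1C, overlapping inputs of 13.7 to 18.5 CPM, and 68.4, 68.2 and 71.3 CPM at L2C, above inputs of 57.8 to 63.4 CPM. The log2 IP/input was -1.34 ± 0.13 (adjusted p = 1.1e-07), -0.63 ± 0.13 (0.00083) and -0.04 ± 0.12 (0.81). The L1C call was lost with library size scaling (-0.33, adjusted p = 0.052). The rise of 1.29 ± 0.18 from MII to L2C was called (adjusted p = 4.1e-05) and so were its steps of 0.71 ± 0.18 to L1C (0.02) and 0.58 ± 0.18 to L2C (0.045). The rise from MII to L2C was called under every alternative tried. The first lost its call with the replicate block (0.71, adjusted p = 0.055), without a filter (0.70, 0.092), with these stages alone (0.62, 0.081) and in 4 of 18 fits that leave out 1 library. The second lost it with the block (0.58, adjusted p = 0.096), library size scaling (0.54, 0.064), no filter (0.54, 0.21), these stages alone (0.39, 0.18) and in 16 of 18 such fits. At L2C the sign of the IP/input itself differed with scaling (0.21 with library size scaling).

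Bax had 43.9, 41.0 and 45.1 CPM in MII IPs, 53.6, 49.3 and 57.4 CPM in L1C IPs and 32.5, 34.0 and 31.9 CPM in L2C IPs. MII and L1C IPs were above their inputs and L2C IPs overlapped them, with log2 IP/input of 0.26 ± 0.14 (adjusted p = 0.17), 0.47 ± 0.14 (0.016) and -0.29 ± 0.14 (0.11). The change from L1C to L2C was -0.76 ± 0.20 (adjusted p = 0.024), and -0.79 with an adjusted p of 0.057 under the replicate block. The L1C call was lost without either L1C input replicate 1 or 3 or L1C IP replicate 1 or 3 (lowest log2 value 0.31) and with the L1C libraries alone (0.46, adjusted p = 0.07), and MII was called with library size scaling (0.50, 0.012) and with the MII libraries alone (0.31, 0.036).

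Of the remaining members, Bid was lower in the IP at L2C, where 59.6, 50.9 and 54.9 CPM stood below all inputs (log2 IP/input -0.58 ± 0.14, adjusted p = 0.0031, and -0.33, adjusted p = 0.054, with library size scaling). Bok was not called at L2C (-0.52 ± 0.22, adjusted p = 0.066), except by DESeq2 (-0.53, 0.042), with the L2C libraries alone (-0.56, 0.02) and without L1C IP replicate 3. It was called lower at MII (-0.65 ± 0.24, adjusted p = 0.043), but not by DESeq2 (-0.58, 0.06), with library size scaling (-0.41, 0.18), without a filter (-0.65, 0.14), with the MII libraries alone (-0.60, 0.05) or under the block (-0.66, 0.079). Bok kept this call at MII in 10 of 18 fits that leave out 1 library and lost it in 8. Bbc3 was called lower at L1C on 2.01 to 12.0 counts per library (-1.56 ± 0.59, adjusted p = 0.046), in 6 of 18 such fits, and not under the block (-1.61, 0.066), with library size scaling (-1.28, 0.088), without a filter (-1.57, 0.072) or by DESeq2 (-1.56, 0.05). Bcl2 IPs held 3.74 to 9.09 counts at MII, at least 2.79-fold above the floor of its inputs (adjusted p = 0.003), and its L1C and L2C values were not called (0.34 ± 0.44 and 0.98 ± 0.43), except for L2C with library size scaling (1.22, adjusted p = 0.024), on protein-coding genes (1.04, 0.04) and without L2C IP replicate 2. Across the family 1 member changed its IP/input upward from MII to L1C (3.13% of all genes did) and 0 downward (4.21%). In the step to L2C 1 was called upward (5.00%) and 1 downward (4.47%). Between MII and L2C 1 was called upward (11.1%) and 0 downward (9.21%). The 0 downward calls stood at 1 member (Bcl2) from MII to L1C and 3 (Bcl2, Bcl2l1 and Bax) from MII to L2C at an unadjusted p under 0.05, and DESeq2 called 2 (Bcl2l1 and Bax) in the latter.

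**Figure D3:**
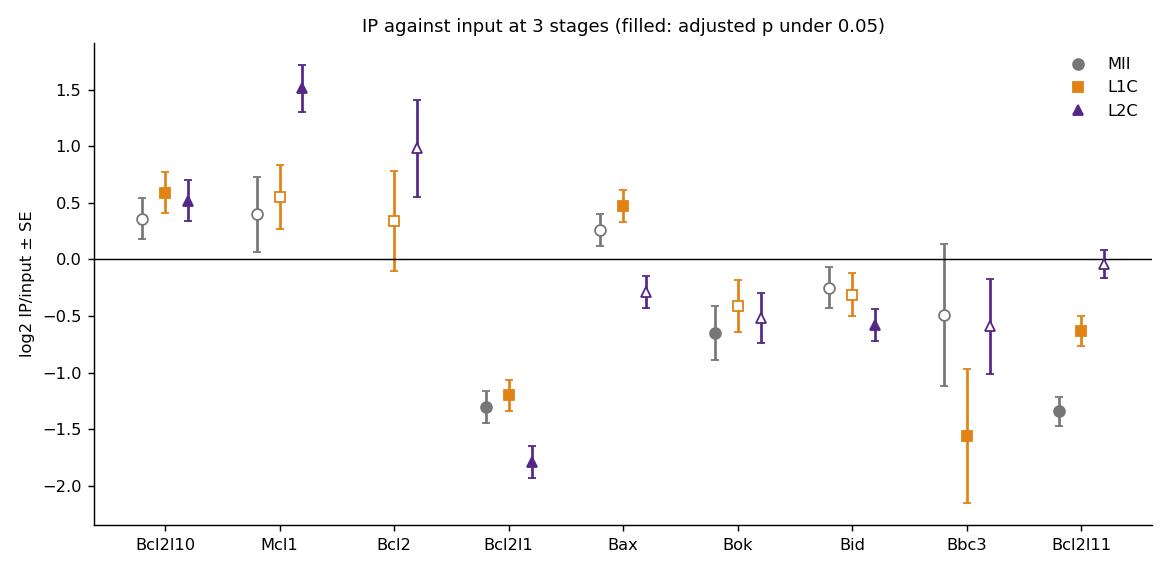
Log2 IP/input of 9 members at MII (circles), L1C (squares) and L2C (triangles), with SE from the fit and filled symbols at an adjusted p under 0.05. Bcl2l1 lies below 0 at all 3 stages, Mcl1 at 1.51 at L2C, and Bcl2l11 climbs from -1.34 to -0.04. Bcl2 at MII is not drawn since its inputs are at the floor, and Bak1 has no counts.

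GGACT is the most frequent letter context of m6A. It was counted in the longest protein-coding GENCODE transcript of each gene, on the transcribed strand, and is printed for Bcl2l10 and Mcl1, which were higher in the IP at L2C, and Bcl2l1, the lower of the 2 members that were lower. Windows hold 10 bases on each side of the capitals GGACT, and positions are of its first base in the transcript. Of 21901 protein-coding genes 87.6% hold at least 1 GGACT, with a median of 1.01 per kb. Mcl1 held 8 in 3418 bases (2.34 per kb, above 93.1% of genes), 6 of them in its 3′ UTR. Bcl2l10 held 1 (0.82 per kb, below that median) and Bcl2l1 held 3 (1.17 per kb, above 59.7%). Bid, the other member lower in the IP at L2C, held 4 (1.83 per kb, above 84.5%). Bax and Bbc3 held 2.73 and 2.76 per kb and were not called higher in the IP at L2C. A match is not a site of methylation, and the IP values rest on gene-span counts whereas the matches were sought in transcripts without introns.
Bcl2l10 base 1144, 3′ UTR: ctagttctaaGGACTtctgaattta
Mcl1 base 594, coding region: ccggctccaaGGACTcgaagcctct
Mcl1 base 921, coding region: ggacgaaacgGGACTggcttgtcaa
Mcl1 base 1084, 3′ UTR: gtgcaataggGGACTcttaaagctc
Mcl1 base 1148, 3′ UTR: ttatgaaggtGGACTtgaagctgcc
Mcl1 base 1330, 3′ UTR: ccatggagaaGGACTtctagaatga
Mcl1 base 1615, 3′ UTR: caagtgctcaGGACTtttagccctg
Mcl1 base 1952, 3′ UTR: ttgtgtgtgtGGACTggttatagat
Mcl1 base 2875, 3′ UTR: ttaactcttcGGACTtcagagcact
Bcl2l1 base 364, 5′ UTR: tttggacaatGGACTggttgagccc
Bcl2l1 base 494, coding region: gaagagaataGGACTgaggccccag
Bcl2l1 base 1973, 3′ UTR: cagggtcaagGGACTctggcctcag

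The KD experiment asked which RNAs change in L2C embryos with less Ythdc1. Ythdc1 itself had 1114, 1138 and 1048 CPM of the merged table in Ctrl and 498, 521 and 493 CPM in KD, without overlap (log2 change -1.0 ± 0.06, adjusted p = 1.3e-10). Here CPM refer to the sum of the merged table, which makes them higher than CPM of whole libraries.

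Bcl2l10 was lower in KD and Mcl1, Bid, Bcl2l11 and Bax were higher. In whole libraries Bcl2l10 had 127, 132 and 145 CPM in Ctrl and 42.6 and 48.5 CPM in KD replicates 1 and 2 (log2 change -1.49 ± 0.10, adjusted p = 7.2e-09, a 2.81-fold difference in 5 libraries). Groups did not overlap. Over the 5 fits that leave out 1 library the log2 change of Bcl2l10 ranged from -1.56 to -1.40. Leaving out a KD replicate leaves 1 KD library, so that only Ctrl gives the spread there. Of 9 oocyte markers tested in the same fit 7 were lower and 1, Zp3, was higher in KD. Their sum was 1621 to 1719 CPM in Ctrl and 721 to 786 CPM in KD, and that of the 2-cell markers was 1408 to 1476 CPM in Ctrl and 390 to 429 CPM in KD. Their part in the changes of the members was not tested.

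Mcl1 had 434, 455 and 413 CPM of the table in Ctrl and 584, 576 and 564 CPM in KD, without overlap (log2 change 0.53 ± 0.06, adjusted p = 9e-07). Bid had 78.0, 66.5 and 74.5 CPM in Ctrl and 95.6, 108 and 107 CPM in KD, also apart (0.62 ± 0.10, adjusted p = 2e-05). Bcl2l11 had 123, 115 and 143 CPM in Ctrl and 167, 180 and 169 CPM in KD, apart as well (0.57 ± 0.09, adjusted p = 1.6e-05). These 3 members were called in all 6 fits that leave out 1 library. Bax had 21.6, 15.5 and 28.4 CPM in Ctrl and 28.5, 30.9 and 29.0 CPM in KD, where the lowest KD library barely exceeded the highest Ctrl library (0.58 ± 0.18, adjusted p = 0.0078). Without Ctrl replicate 2 the change of Bax was not called (0.39). In whole libraries it was called (0.59 ± 0.22, adjusted p = 0.026), but not with library size scaling (0.51, adjusted p = 0.056) or by DESeq2 (0.61, adjusted p = 0.064), nor without Ctrl replicate 2. The change of Bax ranged from 0.38 to 0.77 over the 5 fits that leave out 1 library, where leaving out a KD replicate leaves 1 KD library.

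The other members of the table were not called. Bbc3 had 0.549, 2.27 and 1.83 CPM in Ctrl and 2.73, 3.22 and 2.21 CPM in KD (0.95 ± 0.48, adjusted p = 0.084), and was called without Ctrl replicate 2 (1.44). Bcl2l1 had 16.1 to 24.4 CPM in Ctrl and 16.4 to 25.5 CPM in KD (0.19 ± 0.20), Bcl2 3.36 to 4.94 and 2.39 to 4.10 CPM (-0.25 ± 0.37) and Bok 7.02 to 9.88 and 5.90 to 8.82 CPM (0.01 ± 0.28), all with overlapping groups. Among the 8 members of the merged table, 4 were thus higher and 0 lower, where 33.5% of 7433 genes were higher and 37.4% lower. DESeq2 also called 0 lower, and 0 had a lower level at an unadjusted p under 0.05. In whole libraries 4 of 9 were higher and 1 lower (30.5% and 36.4% of 17074 genes). The median log2 change of the members was 0.55 in the table and 0.54 in whole libraries, against -0.06 and -0.09 for all genes. The rule of the study (unadjusted P under 0.05 and a change of more than 1 on the log2 scale) was put on P values of edgeR, whereas the study used DESeq2. By this rule Bcl2l10 alone passed, as did 24.5% of genes of whole libraries in the lower and 14.4% in the higher direction. Among genes of the merged table, 22.5% passed it in the lower and 14.7% in the higher direction, and 0 members did.

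These changes reordered the family. Per exon kb Mcl1 led in KD with 66.1 ± 0.889 CPM per exon kb (SD, n = 2), ahead of Bcl2l10 with 36.8 ± 3.37, whereas Bcl2l10 led in Ctrl. Bcl2l10 exceeded Mcl1 by 2.15, 2.14 and 2.57 times in Ctrl and was 0.516 and 0.599 times as high in KD, a log2 difference of -2.03 (exact permutation test, two-sided p = 0.1, the smallest that 2 against 3 libraries allow). Bcl2l10 made up 60.7% ± 1.49 of the summed level of the family in Ctrl and 27.5% ± 1.62 in KD, Mcl1 26.7% ± 2.14 and 49.4% ± 2.28, and BH3-only genes together 7.78% ± 0.478 and 15.0% ± 0.551. That summed level was 179 ± 7.45 CPM per exon kb in Ctrl and 134 ± 4.36 in KD, so that shares rose more than levels. Mcl1 itself was 1.46-fold higher in KD in whole libraries.

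**Figure D4:**
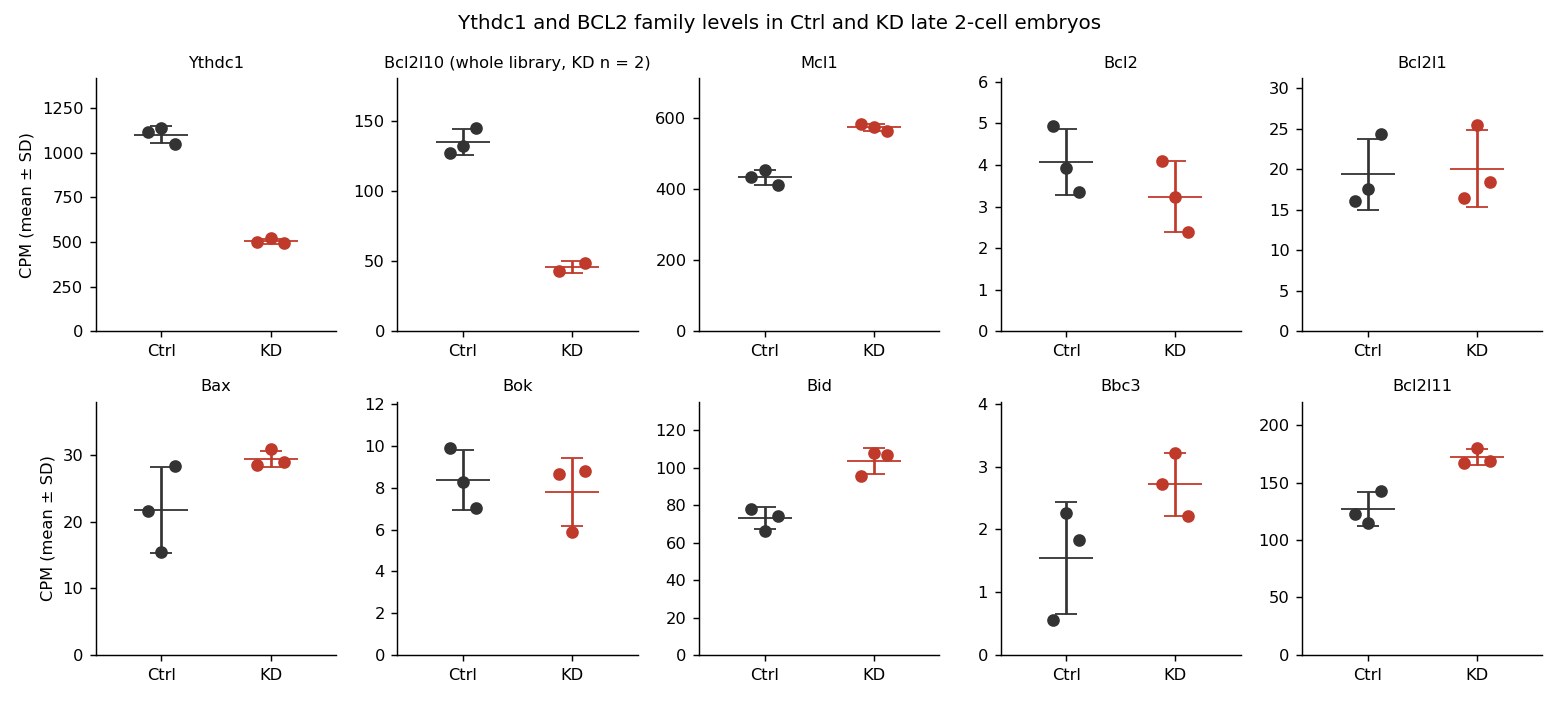
CPM of Ythdc1 and 9 members in Ctrl (black) and KD (red) libraries, with points for libraries and bars for mean ± SD on linear axes from 0. Bcl2l10 is drawn as CPM of whole libraries (3 Ctrl, 2 KD) and the others as CPM of the merged table (3 and 3). Ythdc1 and Bcl2l10 are lower in KD, and Mcl1, Bid, Bcl2l11 and Bax are higher.

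**Figure D5:**
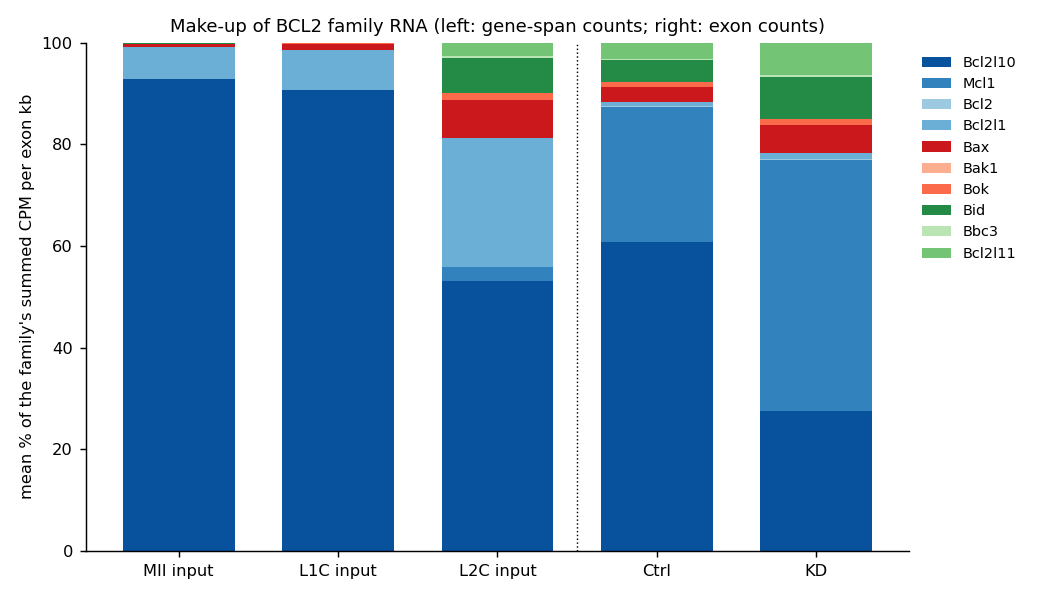
Mean share of each member in the summed CPM per exon kb of the 10 genes, for inputs of the 3 stages (n = 3 each, gene-span counts) and for Ctrl (n = 3) and KD (n = 2) embryos (exon counts), separated by the dotted line. Bcl2l10 takes 92.8% at MII, 53.2% at L2C, 60.7% in Ctrl and 27.5% in KD.

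The rest of the death machinery was followed through lists of related genes. Of 10 other BCL2-related genes tested, 8 rose and 2 fell from L1C to L2C, where 44.1% of all genes rose and 38.8% fell, with a median log2 change of 3.19 against 0.17 for all genes. Bcl2l14 (BCL-G) was at the floor in MII inputs and at least 507-fold above it at L2C (72.3 ± 5.42 CPM). Bik, a BH3-only gene, fell from 96.8 ± 18.7 to 26.0 ± 2.80 CPM (-1.99 ± 0.15, adjusted p = 1.9e-08). From MII to L1C 4 rose, among them Pmaip1 (NOXA, which targets Mcl1 protein; 2.70 ± 0.44, adjusted p = 0.00015), and 2 fell, Bcl2l13 with the smallest p (-1.28 ± 0.12, adjusted p = 8.2e-07).

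Of 11 apoptosome and caspase genes, 1 rose and 4 fell from MII to L1C, and 7 rose and 2 fell from L1C to L2C (medians -0.35 and 1.61, all genes 0.16 and 0.17). The share of all genes that rose and fell was 31.9% and 24.3% to L1C and 44.1% and 38.8% to L2C, and the lists below stand against the same shares. Casp9, the initiator that Apaf1 activates, fell to L1C (-1.83 ± 0.21, adjusted p = 7.4e-06) and Casp2, another initiator, fell to L2C (-1.54 ± 0.18, adjusted p = 1.4e-06). Of 5 inhibitor of apoptosis genes 2 rose and 1 fell to L1C, and 3 rose and 2 fell to L2C. Xiap, the direct caspase inhibitor, rose from 6.72 ± 1.08 to 48.7 ± 9.10 CPM (2.76 ± 0.19, adjusted p = 4.6e-09), and Birc3 fell from 1105 ± 73.8 to 112 ± 7.55 CPM (-3.40 ± 0.14, adjusted p = 3.3e-11).

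In the death receptor list 3 of 6 genes tested rose and 0 fell to L1C, Ripk1 with the smallest p (1.17 ± 0.16, adjusted p = 2.3e-05), and 3 rose and 3 fell to L2C. Casp8, which cuts Bid, fell from 33.8 ± 5.62 to 1.14 ± 0.201 CPM (-4.98 ± 0.21, adjusted p = 3e-11) over the step in which Bid rose, and Tnfrsf1a, at the floor at L1C, rose at least 15.8-fold. Of 5 genes tested in the last list, which joins genes that act on Mcl1 protein with Vdac2 and Trp53, 1 rose and 4 fell to L2C. Huwe1, a ubiquitin ligase for Mcl1, rose (1.62 ± 0.15, adjusted p = 1.3e-07), and Vdac2, a mitochondrial channel that holds BAK, fell (-2.10 ± 0.13, adjusted p = 1.2e-09).

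In the IP at L2C, each of the 5 lists had called genes on both sides. Those with the smallest p on the higher side were Bnip3l (1.08 ± 0.16), Cycs (1.12 ± 0.3), Birc6 (0.66 ± 0.19), Casp8 (0.91 ± 0.19) and March5 (1.1 ± 0.13). Those on the lower side were Bcl2l13 (-1.09 ± 0.12), Htra2 (-0.56 ± 0.13), Birc3 (-0.80 ± 0.14), Cflar (-0.84 ± 0.14) and Trp53 (-0.36 ± 0.13). Over the 5 lists 9 genes were higher and 9 lower at L2C of 38 tested, near the 22.0% of all genes in each direction. The counts of the lists in KD embryos stand against 30.5% of all genes higher and 36.4% lower. In whole libraries 4 of 10 other BCL2-related genes were higher and 3 lower, with Pmaip1 at 34.9 ± 3.39 CPM in Ctrl and 8.98 ± 0.127 CPM in KD (-1.88 ± 0.14, adjusted p = 2.3e-08). Of 10 apoptosome genes 4 were higher and 4 lower, with Apaf1 at 35.6 ± 0.827 CPM in Ctrl and 74.3 ± 8.07 CPM in KD (1.14 ± 0.10, adjusted p = 1.8e-07) and Endog lower (-1.80 ± 0.41, adjusted p = 0.0012). Of 5 inhibitor genes 3 were higher and 0 lower, with Birc2 at 3.54 ± 0.706 CPM in Ctrl and 15.0 ± 0.664 CPM in KD (2.12 ± 0.21, adjusted p = 4.1e-07). Cflar, which blocks caspase-8, was higher (1.62 ± 0.15, adjusted p = 2.8e-07) and Ripk1 lower (-1.26 ± 0.16, adjusted p = 5.1e-06) among 5 death receptor genes with 2 higher and 1 lower. Trp53, which encodes p53, was higher (1.29 ± 0.20, adjusted p = 3.5e-05) and Vdac2 lower (-0.99 ± 0.11, adjusted p = 9.5e-07). Both belong to the last list, which joins genes that act on Mcl1 protein with Vdac2 and Trp53. Of its 6 genes 2 were higher and 2 lower.

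For each role the member with the highest mean level per exon kb over the 9 inputs was taken. Bid held that place among BH3-only genes through its level at L2C, while Bcl2l11 stood above it at MII and L1C. The genes most like these members over the 9 inputs were sought among 8283 protein-coding genes with a mean of at least 10 CPM, by Pearson's r of log2(CPM + 1). For Bcl2l10 they were Champ1 (r = 0.9992), Ets2 (0.9988) and Prdm6 (0.9987). Champ1 fell from 563 CPM at MII to 113 CPM at L2C, a smaller fall than that of Bcl2l10, since r takes no account of the size of a change. For Bid they were Zscan5b (0.9997), Ccne1 (0.9997) and Tor1b (0.9996), and Ccne1 rose from 11.6 CPM at L1C to 1014 CPM at L2C. For Bax, which hardly varied, they were Ssc4d (0.8853), Fam222a (0.8636) and Nfu1 (0.8482). The 9 libraries fall into 3 stages, so that these values describe the order of stages and share the depth of each library.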

How the data were processed

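Per the labels and the methods, the authors quantified SLIM-seq reads with kallisto and deposited an estimated count and a TPM per gene, on whole gene spans (GRCm38). The reads of the KD experiment were trimmed with Trimmomatic, aligned with HISAT2 and counted on exons with featureCounts, and the authors deposited these as raw counts. The version of kallisto is not given in the sources used here. featureCounts was run without a strand option, and the labels name a stranded kit where the methods name Smart-seq2, so strand was not relied on. The merged KD table holds 25739 genes and ends on chromosome 7, like KD replicate 3. It holds 37.5 to 39.0% of the counts of whole libraries.

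The 10 members, the lists of related genes and the tests were chosen with earlier results of these data known. Estimated counts were rounded. Genes were filtered with filterByExpr (minimum count 10), scaled by TMM and tested with edgeR 4.0.16 (R 4.3.3) by its quasi-likelihood test, over all genes that passed, and called at a Benjamini-Hochberg adjusted p under 0.05. Inputs, IP against input (18 libraries), KD (6 libraries, merged table) and KD in whole libraries (5 libraries) were separate fits. All adjusted p-values in the text come from these fits unless DESeq2 1.42.0 is named. The fits were tested on simulated data. Log2 changes are given ± SE and levels ± SD. Of the lists, the called gene with the smallest p in each direction was eligible to be named. Folds against a group at 3 counts or fewer per library are bounds. Replicates differed by more than sampling noise (lowest chi-square per degree of freedom 5.57 and 2.67). Alternatives were library size scaling, no filter, protein-coding genes only, leaving out each library, a replicate block, the compared stages alone, DESeq2 and the rules of the study put on edgeR P values.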

Additional observations from a re-analysis of the deposited data

Results flagged for a closer look

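The IP/input of 2 members differed between stages by the interaction term of the fit. For Bcl2l11 the difference was 0.71 between L1C and MII, 0.58 between L2C and L1C and 1.29 between L2C and MII on the log2 scale. For Bax it was -0.76 between L2C and L1C. With the replicate block the values of 0.71, 0.58 and -0.76 became 0.71, 0.58 and -0.79 and lost their calls (adjusted p = 0.055, 0.096 and 0.057), and the value of 0.58 lost its call in 16 of 18 fits that leave out 1 library.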

How the results depend on the processing

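Of 98 values of the members, 80 kept their direction and their side of the threshold with library size scaling, 89 without a filter on low counts, 93 on protein-coding genes and 88 with DESeq2, as did 62 of 76 with the compared stages alone and 1188 of 1308 with 1 library left out. The cause of the changes was not tested. Inputs came from the same batches as the IPs, but no source ties replicate numbers to batches. They were not treated as pairs, since only 2 of 9 input and IP pairs, 3 of 9 input pairs across stages and 0 of 3 KD and Ctrl pairs had deviations that correlated above 0.1. With the replicate block 93 of 98 values kept their call, and Bbc3 at L1C (-1.61), Bok at MII (-0.66), Bcl2l11 (0.71 and 0.58) and Bax (-0.79) lost it. The block left 0 members higher or lower in the IP change from L1C to L2C and 0 higher in that from MII to L1C, with 603 and 565 of all genes higher and lower in the former and 380 higher in the latter.

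The Bcl2l10 share was 97.4%, 96.4% and 67.5% at MII, L1C and L2C on deposited TPM, and 99.0%, 98.5% and 71.3% without Bcl2l1, an alternative chosen after seeing the data. With library size scaling 3 members were higher at MII, 1 lower at L1C and 1 lower at L2C in the IP, with 6372 genes higher and 2613 lower at L1C and 7315 higher at L2C. Members higher at MII were 2 without a filter, 2 with the stage alone and 0 by the simplified rule of the study. With the stage alone 1 was higher at L1C, and 1 higher and 4 lower at L2C. For the IP change from MII to L1C, 0 members were higher without a filter or with these stages alone, where 444 genes were higher. For that from L1C to L2C, 0 were higher with library size scaling, without a filter and with these stages alone, and 2 lower in each. With these stages alone 566 genes were higher and 1687 lower, and with DESeq2 2 members were higher and 2 lower, with 1777 genes lower. From MII to L2C 2 members were higher with DESeq2, library size scaling, no filter and protein-coding genes, and 2 lower with DESeq2 and with these stages alone. By the study's rule, put on edgeR P values, 0 members were higher in KD in either fit, with 1092 genes higher and 1672 lower in the table and 2456 higher in whole libraries.

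The sign turned for Bcl2l11 in the IP at L2C (0.21 with library size scaling, 0.01 on protein-coding genes), for the IP change of Bid from MII to L1C (0.00, library size) and of Bok from MII to L2C (-0.05, stages alone), and for Bok in KD (-0.11 library size, 0.00 no filter, -0.02 protein-coding, -0.09 whole libraries). For Bax in inputs it turned from MII to L1C (0.03, library size), from L1C to L2C (-0.01 no filter, -0.08 stages alone, -0.09 protein-coding) and from MII to L2C (0.08 DESeq2, 0.14 library size).

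With 1 library left out, input changes ranged from -0.02 to 0.22 for Bok and -0.24 to 0.15 for Bax from MII to L1C, and for Bax from -0.18 to 0.20 (L1C to L2C) and -0.12 to 0.03 (MII to L2C). Members higher in the IP numbered 0 to 2 at L1C and 1 to 2 at L2C. In the IP change from MII to L1C, 0 to 1 were higher and 0 to 1 lower, with 440 to 770 genes higher, and Bok ranged from -0.07 to 0.39, Bcl2l1 from -0.04 to 0.21, Mcl1 from -0.18 to 0.49 and Bid from -0.21 to 0.13. Bcl2l11 (0.59 to 0.79) lost its call without MII input replicate 2, MII IP replicate 1 or L1C IP replicate 1 or 3. From L1C to L2C 0 to 1 were higher and 0 to 2 lower, with 681 to 1133 genes higher and 588 to 1049 lower. Bok ranged from -0.27 to 0.19 and Bcl2l10 from -0.29 to 0.11, Bcl2l11 (0.50 to 0.69) lost its call in 16 of 18 fits and Bax (-0.98 to -0.61) in 5. From MII to L2C 1 to 2 were higher and 0 to 2 lower, with Bok from -0.03 to 0.25, Bbc3 from -0.44 to 0.35 and Bcl2l10 from -0.06 to 0.28. In KD, Bok ranged from -0.09 to 0.18 in the table and -0.41 to 0.17 in whole libraries, where Bcl2 ranged from -0.24 to 0.13 and Bcl2l1 from -0.07 to 0.54. Low counts limit Bcl2, Bbc3 and, before L2C, Mcl1.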
